A study of Homo sapiens with 3 samples.

Results

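The 7 transcripts of the mitochondrial genome that encode subunits of respiratory complex I were followed through 2 RNA-seq libraries of hCMEC/D3, a human cell line derived from the endothelium of small brain vessels and immortalized for culture. They were picked by their Ensembl transcript identifiers, and they are 7 of the 177456 transcripts in each table. RNA replicates 1 and 2 form 1 group: hCMEC/D3 cells at passages 4 to 6, grown to confluence on collagen in endothelial medium, with no treatment, other genotype or other cell type beside them. RNA was extracted with Trizol, and 100 ng of it went into each library. A single ATAC-seq library of the same line, ATAC replicate 2, is the only other readout. ATAC-seq marks accessible DNA with a transposase. The labels do not say whether the RNA replicates came from separate cultures, so the spread between them may be technical.

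Complex I, NADH:ubiquinone oxidoreductase, takes electrons from NADH at the start of the respiratory chain and pumps protons across the inner mitochondrial membrane. Its mitochondrially encoded subunits form the core of the membrane arm, and all the others are made from nuclear genes. The mitochondrial genome is transcribed from both strands into long precursors, which are cut mostly at transfer RNAs, so that the messenger RNAs start out as parts of shared molecules and come to differ in level through processing and decay. In brain endothelium, mitochondria are studied as a source of the energy that barrier transport uses.

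The table lengths of the 7 transcripts were each equal to the length of the named gene in the RefSeq table of GRCh38.p14, where 13 of the 37 mitochondrial genes are protein-coding. These genes have no introns. MT-ND1 (ENST00000361390.2) lies on the mitochondrial chromosome from 3307 to 4262, and its product sits where the membrane arm meets the peripheral arm. The antiporter-like subunits are encoded by MT-ND2 (ENST00000361453.3, from 4470 to 5511), MT-ND4 (ENST00000361381.2, from 10760 to 12137) and MT-ND5 (ENST00000361567.2, from 12337 to 14148). The small membrane subunits between them and the junction are encoded by MT-ND3 (ENST00000361227.2, from 10059 to 10404), MT-ND4L (ENST00000361335.1, from 10470 to 10766) and MT-ND6 (ENST00000361681.2, from 14149 to 14673). MT-ND4L and MT-ND4 share 7 bases, and in human mitochondria they are read from 1 messenger RNA. MT-ND5 and MT-ND6 abut with 0 bases between them, and MT-ND6 is encoded on the opposite strand.

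The lengths also show a feature of mitochondrial messages. MT-ND1 has 2 bases after its last whole codon, and MT-ND2, MT-ND3 and MT-ND4 have 1 each. MT-ND4L, MT-ND5 and MT-ND6 have 0. In human mitochondria, stop codons that the gene leaves incomplete are completed when the message is polyadenylated.

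The 2 RNA libraries stood apart from each other across the whole table, and this bears on every value that follows. Replicate 1 held 27359569.8 estimated reads and replicate 2 held 22313574. In TPM, which divides reads by an effective length and scales every library to the same total, 39169 transcripts had at least 1 TPM on average. Their median stood 0.60 higher in replicate 2 on the log2(TPM + 1) scale. Of these transcripts, 39.2% were over 2-fold higher in replicate 2 and 14.3% over 2-fold lower. Weighted by reads, the mean transcript was 2406 bases long in replicate 1 and 3286 in replicate 2. The RNA tables are named HMEC whereas their titles say hCMEC, and the titles were followed. Transcript identifiers could not be checked against endothelial markers, so the identity of the cells was not checked in the RNA. In the ATAC library, all 10 of 10 endothelial marker genes, CDH5 and CLDN5 among them, had a peak at a gene end (defined with the nuclear genes below), as had 7 of 10 markers of other cell types (LUM, DCN and CDH1 had none), against 72.8% of all protein-coding genes. With no second group and with members proposed from known values, no test was made, and all values are descriptions of these libraries.

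All 7 transcripts were abundant in both libraries. Together they took 0.651% of estimated reads in replicate 1 (95% Wilson interval 0.648% to 0.654%) and 1.55% in replicate 2 (1.55% to 1.56%). In TPM they took 1.33% and 4.29% of the total, a mean of 2.81% ± 2.09 (SD, n = 2). The share was thus higher in replicate 2 by 2.38-fold in reads and by 3.22-fold in TPM, a difference between 2 single libraries that has no replicate check. In bulk RNA, more of these messages per cell and more cells rich in them cannot be told apart. Without MT-ND4L the TPM shares were 1.25% and 2.75%. By TPM, 3 of the 7 were among the 100 highest transcripts of replicate 1 and 7 of 7 in replicate 2, and all 7 were among the 1000 highest in each. The half-width of the 95% counting interval of a member's reads was 5.02% of the value for MT-ND4L in replicate 1. It was at most 1.79% for every other value. Such intervals cover counting error at most, with each estimated read taken as independent. Duplicate reads and the sharing out of reads between transcripts are not covered, and no molecular identifiers are reported.

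MT-ND1 had 31774 estimated reads and 1526 TPM in replicate 1, and 45299 reads and 3494 TPM in replicate 2. Its mean was 2510 ± 1392 TPM (SD, n = 2). It ranked 113th by TPM in replicate 1 and 24th in replicate 2. Replicate 2 was the higher library, by 2.29-fold in TPM and by 1.75-fold in RPM, which scales reads to the size of the library and makes no correction for length.

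Among the antiporter-like subunits, MT-ND4 had the most reads of the 7 in each library, with 63793 in replicate 1 and 110712 in replicate 2. Its level was 1917 TPM and 5385 TPM, a mean of 3651 ± 2452 (SD, n = 2), and it ranked 90th and 10th. MT-ND2 was assigned 32873 reads in replicate 1 and 63301 in the other library, at 1407 and 4362 TPM. Both messages were higher in replicate 2, by 2.81-fold for MT-ND4 and by 3.10-fold for MT-ND2 in TPM. MT-ND5, the longest of the 7, had 12109 reads and 263 TPM in replicate 1, and 65923 reads and 2324 TPM in replicate 2. It was the lowest of the 7 by TPM in both libraries, ranking 504th and 42nd, and yet it differed between them by 8.84-fold. Its mean of 1293 TPM had an SD of 1457 (n = 2), larger than the mean itself.

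The small subunits held both the steadiest and the least steady message. MT-ND3 was assigned 13796 and 13593 reads, at 4641 and 6652 TPM. With a mean of 5647 ± 1423 TPM (SD, n = 2), it had the smallest ratio between the libraries of the 7, at 1.43-fold in TPM and 1.21-fold in RPM, and its direction flipped with size factors. MT-ND6 had 22239 and 27419 reads, at 2740 and 5258 TPM, a difference of 1.92-fold. MT-ND4L had 1545 reads and 845 TPM in replicate 1, and 19790 reads and 15469 TPM in replicate 2. It ranked 169th by TPM in replicate 1 and 3rd in replicate 2. Its 18.3-fold difference was the largest of the 7, and its mean of 8157 TPM had an SD of 10341 (n = 2). In RPM it was 56.5 and 887, a ratio of 15.7 with a counting interval of 14.9 to 16.6.

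**Figure D1:**
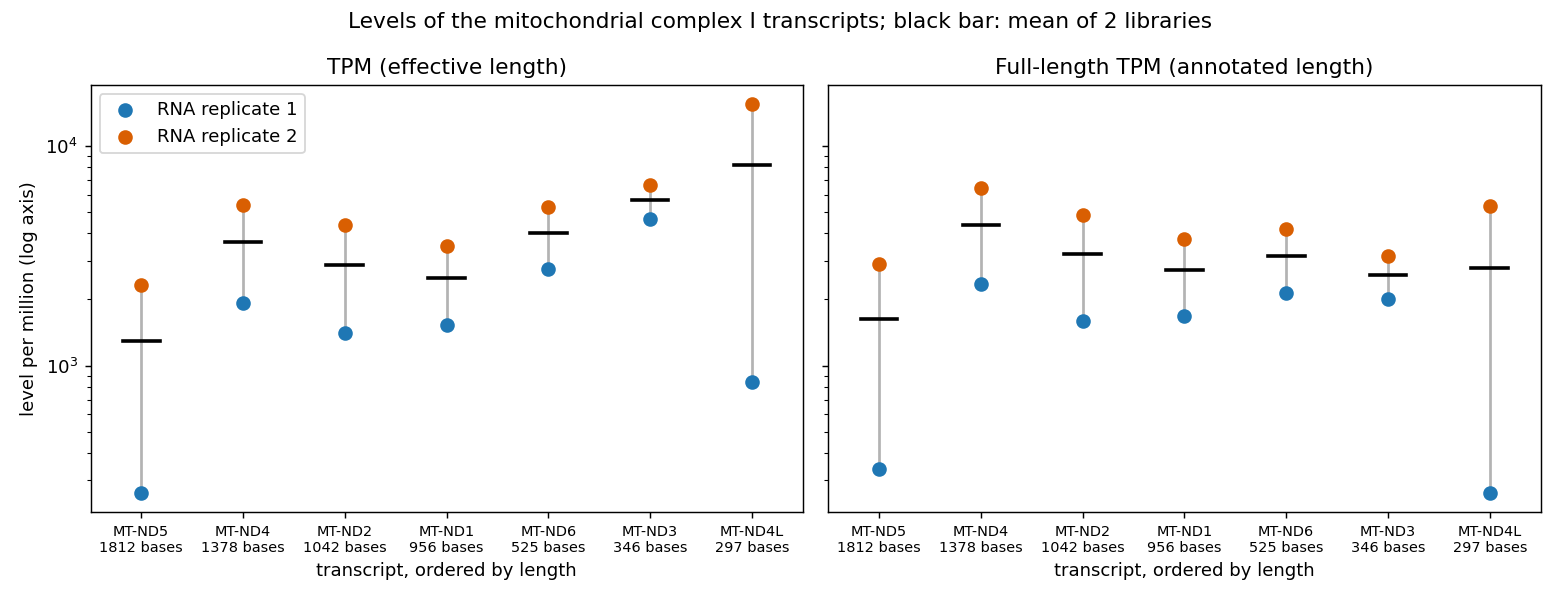
Level of each transcript in RNA replicate 1 (blue) and replicate 2 (orange), on a log axis, as TPM from the effective length (left) and as full-length TPM from the annotated length (right); black bars are the mean of the 2 libraries, and transcripts run from longest to shortest. Replicate 2 is the higher library for every transcript on these scales, though MT-ND3 flips when size factors are used, and MT-ND4L and MT-ND5 have the widest gaps; MT-ND3 and MT-ND4L drop on the right-hand scale.

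By mean TPM the order was MT-ND4L, MT-ND3, MT-ND6, MT-ND4, MT-ND2, MT-ND1 and MT-ND5. The ranges of all 6 pairs of neighbours overlapped, so no neighbours in this order were separated beyond the spread of the libraries. Within a library some orders held in both: MT-ND3 was above MT-ND6, MT-ND4 was above MT-ND2, and MT-ND1 was above MT-ND5 in 2 of 2 libraries. MT-ND4L took the 6th place of 7 in replicate 1 and the first in replicate 2. The highest of the 7 was 17.7 times the lowest in replicate 1 and 6.66 times the lowest in replicate 2. The levels were thus unequal in both libraries. Highest over lowest was smaller in replicate 2, but the SD of the 7 TPM values as a share of their mean was 75.4% in replicate 1 and 70.9% in replicate 2.

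The effective length weighs heavily on the short members. It is the number of positions from which a fragment could have come, and for transcripts of at least 1000 bases its median was 250.1 bases below the annotated length in replicate 1 and 235.4 below in replicate 2. With the usual definition this corresponds to mean fragments of 251 and 236 bases. MT-ND5, of 1812 bases, kept 86.2% of its length in replicate 1 and 87.0% in replicate 2. MT-ND4, of 1378 bases, kept 81.9% and 82.9%. MT-ND2, of 1042 bases, kept 76.0% and 77.4%, and MT-ND1, of 956 bases, kept 73.8% and 75.4%. The short messages lost far more. MT-ND6, of 525 bases, had effective lengths of 275 and 290 bases. MT-ND3, of 346 bases, had 101 and 114 bases. MT-ND4L, of 297 bases, had 62.0 and 71.1 bases, or 20.9% and 23.9% of its length. Transcripts of the same length mostly had the same effective length, in counts that include the member itself. Of the transcripts of 297 bases, 64 of the 64 matched the member within 0.0015 bases in each library, and of those of 525 bases 161 of the 162. For MT-ND5, 31 of the 33 transcripts of 1812 bases matched. Over the whole table, transcripts of 1 length could differ in effective length by up to 145 bases, so length and library fixed it for most but not all transcripts.

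**Figure D2:**
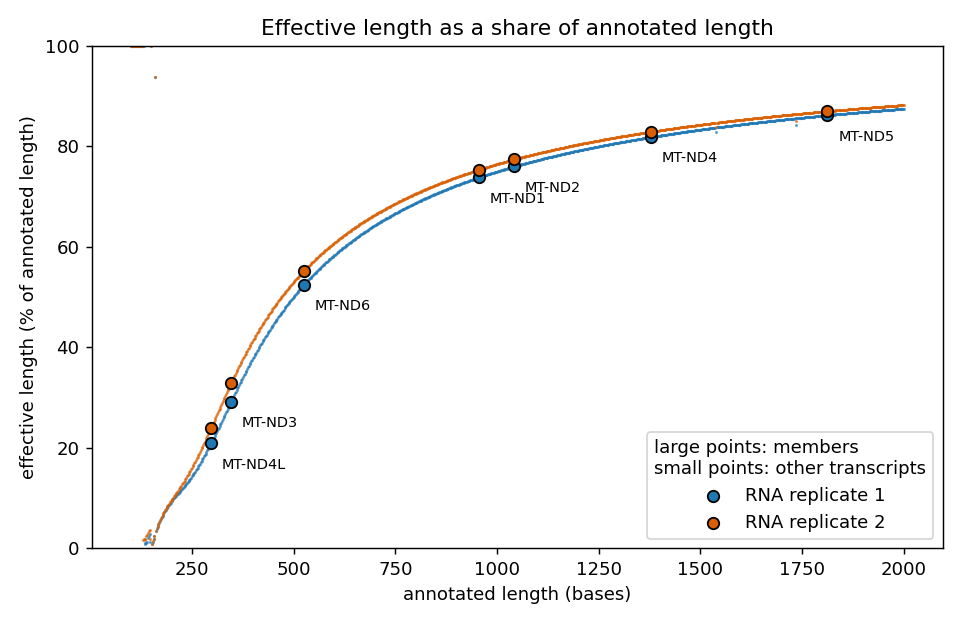
Effective length as a percentage of annotated length (vertical axis) against annotated length in bases (horizontal axis) in RNA replicate 1 (blue) and replicate 2 (orange). Large points are the 7 members, and small points are single transcripts at even lengths from 100 to 2000 bases, not the whole table. The 4 messages of 956 bases or more keep 73.8% to 87.0% of their length, whereas MT-ND4L keeps 20.9% and 23.9%.

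Levels were therefore also computed as full-length TPM, that is reads per annotated base scaled to the same library total as TPM. On this scale MT-ND4 was the highest of the 7 in both libraries, with 2342 in replicate 1 and 6421 in replicate 2. MT-ND3 went from 4641 TPM to 2017 full-length TPM in replicate 1 and from 6652 to 3140 in replicate 2. It thereby moved from the first place to the third in replicate 1 and from the second to the 6th in replicate 2. MT-ND4L went from 845 to 263 in replicate 1, the lowest of the 7, and from 15469 to 5325 in replicate 2, the second highest. MT-ND6 stood at 2143 and 4174, MT-ND2 at 1596 and 4855, MT-ND1 at 1681 and 3787, and MT-ND5 at 338 and 2907. The full-length levels of the 7 spanned 8.90-fold in replicate 1 and 2.21-fold in replicate 2, narrower than in TPM in each library. MT-ND3 was thus the top message of replicate 1, and MT-ND4L that of replicate 2, on the effective length scale alone.

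MT-ND4L and MT-ND4 allow a closer look, because the textbook places them on the same molecule. Per annotated base, MT-ND4L was at 0.112 of the MT-ND4 level in replicate 1 and at 0.829 in replicate 2. In TPM the same ratio was 0.441 and 2.87. The ratio thus lay below 1 in both libraries by full length, and on both sides of 1 in TPM. Per annotated base, a ratio of 1 does not mark equal numbers of molecules, because the effective lengths differ. MT-ND4L kept 20.9% and 23.9% of its length, against 81.9% and 82.9% for MT-ND4. In reads, MT-ND4L made up 0.867% of the reads of the 7 in replicate 1 and 5.72% in replicate 2. Over the whole table, the 6265 transcripts of up to 300 bases took 0.0673% of reads in replicate 1 and 0.212% in replicate 2. In TPM they took 1.74% and 7.46%. These sums include MT-ND4L itself, at 56.5 RPM and 845 TPM in replicate 1 and 887 RPM and 15469 TPM in replicate 2. They are thus not a background apart from it, and the part of short length in the MT-ND4L value was not tested.

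Of the remaining messages, MT-ND2 kept the steadiest share of the reads and the share of MT-ND5 moved the most. MT-ND4 made up 35.8% of the reads of the 7 in replicate 1 and 32.0% in replicate 2, and MT-ND2 made up 18.5% and 18.3%. MT-ND1 went from 17.8% to 13.1%, MT-ND6 from 12.5% to 7.92% and MT-ND3 from 7.74% to 3.93%. MT-ND5 went the other way, from 6.80% to 19.1%. Per annotated base MT-ND5 was at 0.144 of the MT-ND4 level in replicate 1 and at 0.453 in replicate 2.

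**Figure D3:**
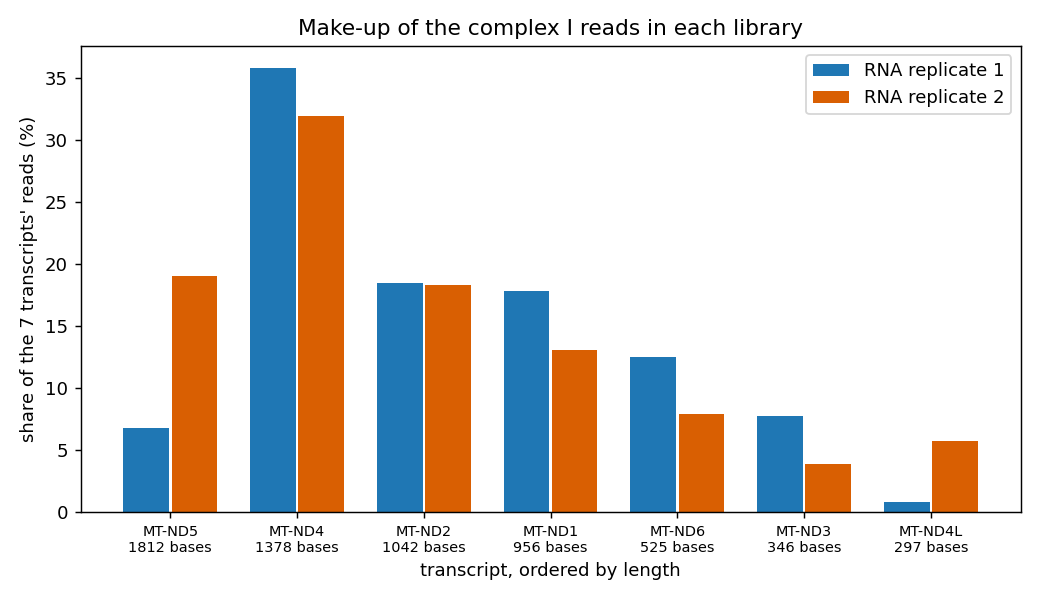
Share of each transcript in the estimated reads of the 7 (vertical axis, %) in RNA replicate 1 (blue) and replicate 2 (orange), ordered from longest to shortest. MT-ND4 has the largest share in each library, MT-ND2 is nearly level at 18.5% and 18.3%, and MT-ND5 and MT-ND4L have larger shares in replicate 2.

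The difference between the libraries was then set against the whole table on the log2(TPM + 1) scale, as replicate 2 minus replicate 1. It was 4.19 for MT-ND4L, 3.14 for MT-ND5, 1.63 for MT-ND2, 1.49 for MT-ND4, 1.19 for MT-ND1, 0.94 for MT-ND6 and 0.52 for MT-ND3. The median of the 7 was 1.49, against 0.60 over the 39169 transcripts. Of the members, 5 of 7 were over 2-fold higher in replicate 2, against 39.2% of all transcripts, and 0 of 7 were over 2-fold lower, against 14.3%. Relative to the median shift, 3 of 7 were over 2-fold higher, against 26.4%. In RPM, 4 of 7 were over 2-fold higher, against 28.1%, and 0 of 7 lower, against 16.6%. In full-length TPM the counts were again 5 of 7 higher, against 38.8%, and 0 of 7 lower, against 14.4%.

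Transcripts as abundant as the members mostly differed in the opposite direction. The 133 transcripts that averaged 1000 TPM or more, a threshold chosen after seeing the data, had a median difference of -0.66, and 11 of them (8.27%) were over 2-fold higher in replicate 2. These 11 include 5 of the 7 members, but MT-ND4L and MT-ND5 reach this threshold only through replicate 2, the library where they are high, so the filter partly fixes their place. Among the 1154 that averaged 100 TPM or more, the median was -0.34, and 127 (11%) were over 2-fold higher.

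**Figure D4:**
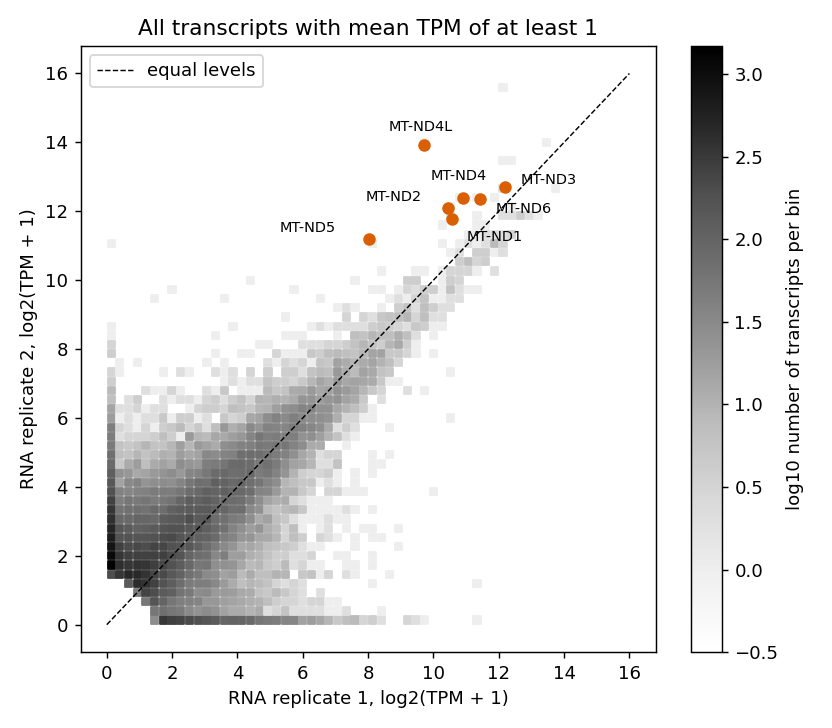
Log2(TPM + 1) in RNA replicate 1 (horizontal axis) against replicate 2 (vertical axis); grey squares are bins of the 39169 transcripts that averaged 1 TPM or more, shaded by the log10 number of transcripts, orange points are the 7 members, and the dashed line marks equal levels. All 7 lie above the line (MT-ND3 does not with size factors), where the median of transcripts with at least 1000 TPM is below it by 0.66.

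The medians and upper quartiles of transcripts of like length lay below the differences of MT-ND4L and MT-ND5. Single transcripts beyond the quartiles were not compared, and the part of length was not tested. The transcripts of like length were not matched to the members for level, so a place between their quartiles does not describe transcripts as abundant. The 268 transcripts within 10% of the length of MT-ND4L, at 1 TPM or more on average, had a median difference of 0.999 (quartiles -0.44 and 2.10), against 4.19 for MT-ND4L. The 2997 transcripts near the length of MT-ND5 had a median of 0.18 (quartiles -0.51 and 0.90), against 3.14. MT-ND6 and MT-ND3 lay between the quartiles of transcripts near their length, -0.38 to 2.07 and -0.71 to 1.88. MT-ND1 also lay within, at 1.19 against -0.53 to 1.67. MT-ND2, at 1.63, and MT-ND4, at 1.49, were above the upper quartiles of 1.61 and 0.95.

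A TPM ratio is the product of the read ratio, the inverse ratio of effective lengths and 1 factor common to the library. That common factor was 1.34-fold in favour of replicate 2, or 0.42 on the log2 scale. The effective length was larger in replicate 2 by 1.15-fold for MT-ND4L and by 1.13-fold for MT-ND3, which taken alone lowers a TPM ratio. For MT-ND5 it was larger by only 1.01-fold. The common factor is itself built from the effective lengths of the whole table. Against full-length TPM, the TPM ratio was higher for MT-ND5 (8.84 against 8.60), MT-ND4 (2.81 against 2.74), MT-ND2 (3.10 against 3.04) and MT-ND1 (2.29 against 2.25). It was lower for MT-ND4L (18.3 against 20.2), MT-ND3 (1.43 against 1.56) and MT-ND6 (1.92 against 1.95). The RPM ratios, in which estimated reads are not divided by effective length, were 15.7 for MT-ND4L, 6.68 for MT-ND5 and between 1.21 and 2.36 for the other 5.

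Scaling by size factors narrowed the differences. With edgeR's TMM factors on estimated reads, which place the median of all transcripts at 0.02, the log2 difference was 3.59 for MT-ND4L, 2.38 for MT-ND5, 0.88 for MT-ND2, 0.73 for MT-ND4, 0.45 for MT-ND1 and 0.24 for MT-ND6. For MT-ND3 the direction flipped, to -0.09. MT-ND4L and MT-ND5 were thus over 2-fold higher in replicate 2 on each scale used, and MT-ND1, MT-ND2 and MT-ND4 were not with TMM.

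**Figure D5:**
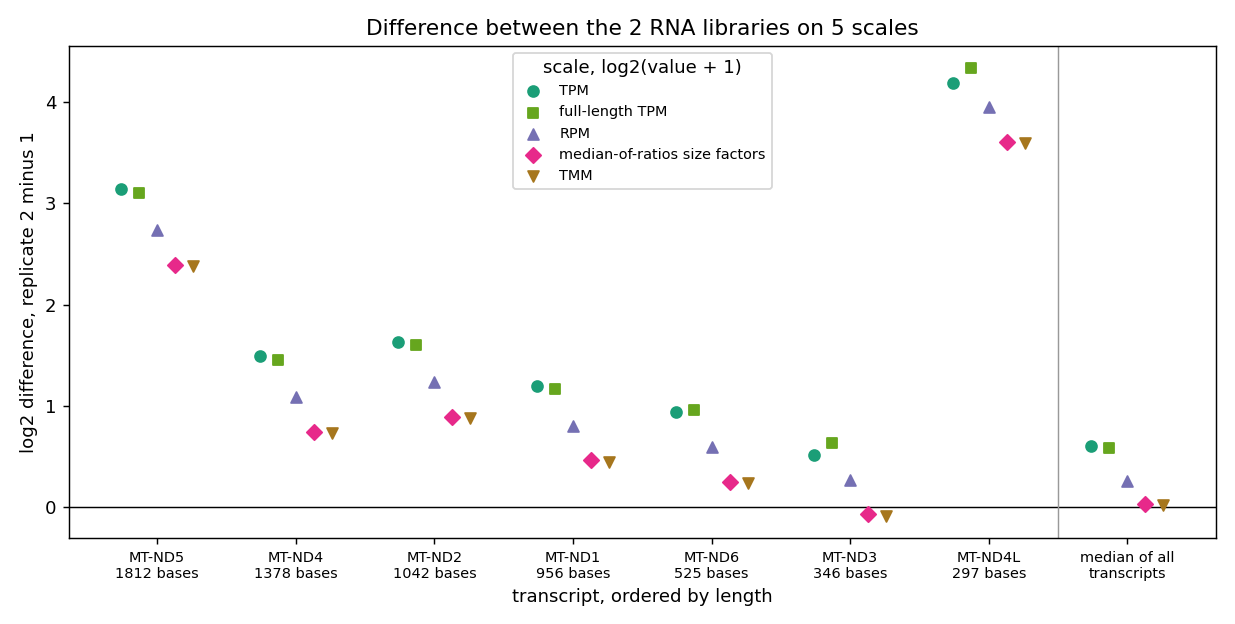
Log2 difference of each transcript, replicate 2 minus replicate 1 (vertical axis), on 5 scales named in the legend, with transcripts from longest to shortest and the median of the 39169 transcripts at the right. MT-ND4L and MT-ND5 stand at 2.38 or more on all 5, and MT-ND3 falls below 0 with TMM and with median-of-ratios size factors.

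Several limits of counting apply to the members. Estimated reads were not whole numbers, within 0.0005 reads, for 7 of 7 members in each library, so part of their reads was shared out between transcripts by the estimate, as for 88.0% of all transcripts with reads in replicate 1 and 90.9% in replicate 2. The RefSeq table lists 255 nuclear pseudogenes named as copies of these 7 genes, from 25 for MT-ND3 to 45 for MT-ND5, and reads from near-identical copies cannot be told apart. Neither the labels nor the headers say whether counting used strand. Without it, MT-ND6 reads and reads of the opposite strand's precursor cannot be told apart.

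Chromatin accessibility bears on the members only indirectly. The ATAC peak list holds 106415 peaks on 24 chromosomes and 0 on the mitochondrial chromosome, and whether mitochondrial reads were removed before peak calling is not given in the sources used here. Of the 255 nuclear pseudogene copies, 11 (4.31%) were overlapped by a peak: 3 of 40 copies of MT-ND4, 3 of 36 of MT-ND6, 2 of 41 of MT-ND2, 1 of 37 of MT-ND1, 1 of 31 of MT-ND4L, 1 of 45 of MT-ND5 and 0 of 25 of MT-ND3. No share over all pseudogenes was computed, so 4.31% cannot be called high or low. The counts by gene are small and not corrected for length: the longest copy had 11203 bases for MT-ND4 and 347 for MT-ND3.

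The nuclear partners of the 7 subunits could be followed in this readout by symbol. A gene end here means within 1 kb of either end of the gene. Of the 37 nuclear genes for complex I subunits, 35 (94.6%, 95% Wilson interval 82.3% to 98.5%) had a peak at a gene end, against 72.8% of 20037 protein-coding genes. The median of their highest end pileups was 51.0 tags, against 45.7 tags for all protein-coding genes with an end peak. Values are given next for core subunits. NDUFV1, which carries the flavin that accepts electrons from NADH, had a pileup of 49.8 tags, and NDUFS8, which carries iron-sulfur clusters, had 68.7 tags. The pileup was 56.8 tags at NDUFS1, the largest iron-sulfur subunit, 56.5 at NDUFV2, 39.1 at NDUFS7 and 36.1 at NDUFS3.

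Of the 30 supernumerary subunit genes, 29 had an end peak, from 22.1 tags at NDUFS4 to 104.6 at NDUFA11, and NDUFA5 had none within 1 kb, with the nearest 1176 bp away. All 17 genes for assembly factors had an end peak. So did 15 of the 16 genes for mitochondrial transcription and RNA processing, among them POLRMT, the mitochondrial RNA polymerase, and TFAM, which packages mitochondrial DNA and starts its transcription. The exception was GRSF1, an RNA granule protein that binds the MT-ND6 message, with the nearest peak 2893 bp from an end. The genes of the complex outside the mitochondrion thus mostly carried accessible ends, but a peak does not give a level of expression, and no level of these genes was set beside the 7 messages.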

How the data were processed

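The authors deposited a table of Ensembl transcripts per RNA library, with length, effective length, TPM and estimated counts of reads, per the file headers. Salmon 1.5.1 and GRCh38 are named in the submitters' processing notes; the annotation release, strand setting and bias options are not given in the sources used here. The deposited ATAC list holds the pileup signal, fold enrichment ratio and, as −log10, the p-value and q-value per peak; the authors called it with MACS 2.2.7.1 on 1 library without a control, per the file headers.

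Members were taken by identifier. RPM, full-length TPM and log2(TPM + 1) differences were computed from the deposited tables with Python 3.11.15 and pandas 2.3.3. TPM recomputed from reads and effective length differed from the deposited value by at most 0.0511% for transcripts of at least 1 TPM. Estimated counts were rounded for TMM (edgeR 4.0.16) and median-of-ratios size factors (DESeq2 1.42.0); no test was run with either tool. The computation of size factors and a separate TPM calculation were tested on simulated counts, and the other steps were not. The background is every transcript averaging 1 TPM or more. Shares carry 95% Wilson intervals and reads exact Poisson intervals, for counting error at most. For reads, each estimated read is taken as independent. A floor of 3 reads, a chosen setting and not a measured limit of detection, was 0.110 RPM in replicate 1 and 0.134 RPM in replicate 2. Peaks were placed by gene symbol with a RefSeq table of GRCh38.p14 (1 kb, overlap of at least 1 bp). The peak list names no build: 72.8% of protein-coding genes had an end peak as deposited, and 29.0% or 28.8% after shifting peaks by 10000 bp either way.

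All 7 members are named. Of the nuclear lists, core subunits and genes without an end peak are named, with the lowest and highest pileup; 1 result is not reported here. The members and lists were chosen with earlier results of these data known. The planned check of transcript against protein length used the RefSeq gene length and the bases after the last whole codon instead.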

Additional observations from a re-analysis of the deposited data

How the results depend on the processing

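MT-ND3 was the only member whose difference between the libraries changed sign, from 0.52 in log2(TPM + 1) to -0.071 with median-of-ratios size factors and -0.086 with TMM; the cause was not tested. The share of all transcripts past 2-fold, 53.5% at a mean of at least 1 TPM, was 30.5% with no filter, 28.7% at 100 TPM and 30.1% at 1000 TPM, the last 2 chosen after seeing the data. The summed share of the 7 ranged from 1.33% without replicate 2 to 4.29% without replicate 1, and was 1.10% of reads and 2.05% of full-length TPM. The 94.6% of nuclear complex I genes with an end peak was the same at −log10 q of at least 2, with a window of 500 bp and with an overlap of at least 100 bp. No paired analysis was possible because there is 1 RNA group, and the ATAC library that shares its number 2 is another assay. With 2 libraries, no value separates replicate error from other differences between them.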
